A study of Mus musculus with 9 samples.

Results

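The cytochrome P450 genes of families 2 and 3 are described here in mouse liver, as the genes whose Entrez identifier has a mouse symbol beginning with Cyp2 or Cyp3, a subfamily letter and a number, pseudogenes left out. The RefSeq gene table held 56 such protein-coding genes, and 53 of the 17846 genes listed in the data were among them. They comprised 4 Cyp2a, 4 Cyp2b, 14 Cyp2c, 8 Cyp2d, 6 Cyp2j and 9 Cyp3a genes and 8 others (Cyp2e1, Cyp2f2, Cyp2g1, Cyp2r1, Cyp2s1, Cyp2t4, Cyp2u1 and Cyp2w1). Cyp2b19, Cyp2c66 and Cyp2j12 had no row and were not analysed here. Livers came from 9 male wild-type mice labelled C57/BL, 3 in each of 3 groups, with 1 library per mouse and no pooling, and all mice were fasted overnight before sampling. Control mice ate normal chow. NASH mice, a model of non-alcoholic steatohepatitis, ate the atherogenic Ath diet, which adds cholesterol and the bile acid cholate, for 20 weeks and were kept sedentary. NASH+Exercise mice ate the same diet and, after its first 12 weeks, were trained on a treadmill for 8 weeks. Training began at 20 weeks of age. As a model, the diet brings cholate into every mouse of both NASH groups, and trained mice on normal chow were not part of the design.

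Enzymes of these families sit in the endoplasmic reticulum of hepatocytes and insert an oxygen atom into drugs, steroids, fatty acids and bile acids. Each cycle needs a haem group in the enzyme and electrons that NADPH-cytochrome P450 reductase (Por) hands over. Many of the genes are switched on by the nuclear receptors CAR (Nr1i3) and PXR (Nr1i2), several differ between males and females under growth hormone, and many are best known from the pericentral zone of the lobule. The families arose by repeated local duplication, so near-identical neighbours are common.

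That duplication is visible in GRCm38.p6. Except for Cyp2c23, at chr19:44005022-44029256, the Cyp2c genes lay between positions 39006940 and 40187286 of chromosome 19. The Cyp2d genes lay on chromosome 15, the Cyp2a and Cyp2b genes with Cyp2e1 and Cyp2f2 on chromosome 7, the Cyp2j genes on chromosome 4 and the Cyp3a genes on chromosome 5. Cyp2u1 stood alone at chr3:131290491-131304157. The proximal promoters of 4 genes on which the results turn are shown, from RefSeq on GRCm38.p6, as the 250 bases before the annotated start, 5′ to 3′ on the strand of the gene. They belong to the most abundant gene (Cyp2e1), the gene with the largest fall (Cyp2b10), the gene that rose most among the abundant ones (Cyp2c70) and the most abundant Cyp3a gene (Cyp3a11). Capitals mark AGGTCA, a half-site bound by many nuclear receptors, and TATAAA, the letters of the TATA box, on either strand, the opposite strand reading TTTATA for the latter.
Cyp2e1, chr7:140763569-140763818, plus strand: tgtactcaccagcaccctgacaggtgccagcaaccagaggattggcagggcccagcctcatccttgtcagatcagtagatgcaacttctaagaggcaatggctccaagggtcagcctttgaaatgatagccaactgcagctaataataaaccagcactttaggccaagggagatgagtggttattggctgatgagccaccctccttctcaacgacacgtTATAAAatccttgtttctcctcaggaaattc
Cyp2b10, chr7:25897408-25897657, plus strand: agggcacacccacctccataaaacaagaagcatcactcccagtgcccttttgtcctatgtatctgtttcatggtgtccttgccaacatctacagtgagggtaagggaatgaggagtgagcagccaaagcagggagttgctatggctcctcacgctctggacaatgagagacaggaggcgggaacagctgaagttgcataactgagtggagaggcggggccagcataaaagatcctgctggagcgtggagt
Cyp2c70, chr19:40187287-40187536, minus strand: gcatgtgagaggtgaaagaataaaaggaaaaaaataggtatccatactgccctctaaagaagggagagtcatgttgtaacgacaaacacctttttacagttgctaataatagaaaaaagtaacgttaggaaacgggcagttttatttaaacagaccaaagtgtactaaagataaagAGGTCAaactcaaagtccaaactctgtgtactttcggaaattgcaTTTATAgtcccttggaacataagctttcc
Cyp3a11, chr5:145879855-145880104, minus strand: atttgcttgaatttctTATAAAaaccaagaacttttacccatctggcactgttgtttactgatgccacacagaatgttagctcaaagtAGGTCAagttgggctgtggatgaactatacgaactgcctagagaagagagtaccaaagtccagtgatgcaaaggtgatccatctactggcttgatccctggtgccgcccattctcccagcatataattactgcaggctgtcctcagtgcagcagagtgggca
Cyp2e1 held TATAAA 31 bases before its start, and Cyp2c70 held it on the opposite strand 29 bases before. In Cyp3a11 these letters lay 234 bases before the start, away from the usual position of a TATA box. AGGTCA began 74 bases before the start of Cyp2c70 and 162 bases before that of Cyp3a11, and the window of Cyp2b10 held neither. Promoters were given for 46 of the genes, 49 in all. Of these, 30.6% held AGGTCA on either strand, against 14% of all 32851 promoters of the same length. TATAAA was found in 44.9% against 12.4%, and GTTAAT, a half-site of the factor HNF1, in 12.2% against 6.43%. Neighbouring duplicates share promoter sequence, so these are not independent promoters.

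Libraries held between 20086004 and 22495449 estimated counts each. Of the 53 genes, 43 passed the filter on low counts and were tested. The other 10 (Cyp2b13, Cyp2b23, Cyp2c65, Cyp2j8, Cyp2j11, Cyp2t4, Cyp2w1, Cyp3a16, Cyp3a41a and Cyp3a44) had between 1 and 11.03 counts at most in any mouse. Of the 43, 32 exceeded the cutoff of 0.465 CPM (read counts relative to library size) in every mouse. The remaining 11 passed through some mice only. Among them, Cyp2b10, Cyp2c69, Cyp2c40 and Cyp2c39 had all 3 mice over the cutoff in Control alone, and Cyp2a4 and Cyp2s1 in NASH alone. Their differences involve the group that brought them into the test. Levels of different genes are compared in TPM, transcript abundance relative to length and library total. Each gene is compared between mice in CPM after TMM scaling, which evens out library composition. Values for mice are given in the order Control replicates 3, 4 and 29, NASH replicates 5, 19 and 20 and NASH+Exercise replicates 8, 18 and 22. A gene is said to have risen or fallen where edgeR's quasi-likelihood test gave a Benjamini-Hochberg adjusted p under 0.05 and the log2 fold change exceeded 1 in size.

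These genes made up 2.49% of the summed TPM of the liver libraries in Control and were lower in both groups on the Ath diet, at 1.78% in NASH and 1.81% in the trained mice. Their summed level was 25204, 25624 and 23990 TPM in the Control mice. It was 17179, 17499 and 18766 TPM in the NASH mice and 19396, 16287 and 18745 TPM in the NASH+Exercise mice. Every Control mouse was above every mouse on the diet, and the NASH and NASH+Exercise mice overlapped in TPM. In CPM after TMM every trained mouse was above every NASH mouse. The mean in NASH was 0.714 of that in Control in TPM and 0.53 in CPM after TMM. In NASH+Exercise it was 1.02 of that in NASH in TPM and 1.23 in CPM, so the scale decides how far the trained mice stand above the sedentary ones. In bulk liver, fewer hepatocytes and less RNA per hepatocyte cannot be told apart. The level of Cyp2e1, which oxidises ethanol and other small molecules, was 41.2% of the sum in Control, where it ranked number 15 among all genes in TPM. It was 34.3% in NASH and 36.4% in NASH+Exercise. Cyp3a11, the main Cyp3a enzyme of mouse liver, was 15.5%, 16.8% and 8.95% of the sum. Cyp2d9, a male-specific testosterone 16α-hydroxylase, ranked next in Control with 7.19%.

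**Figure D1:**
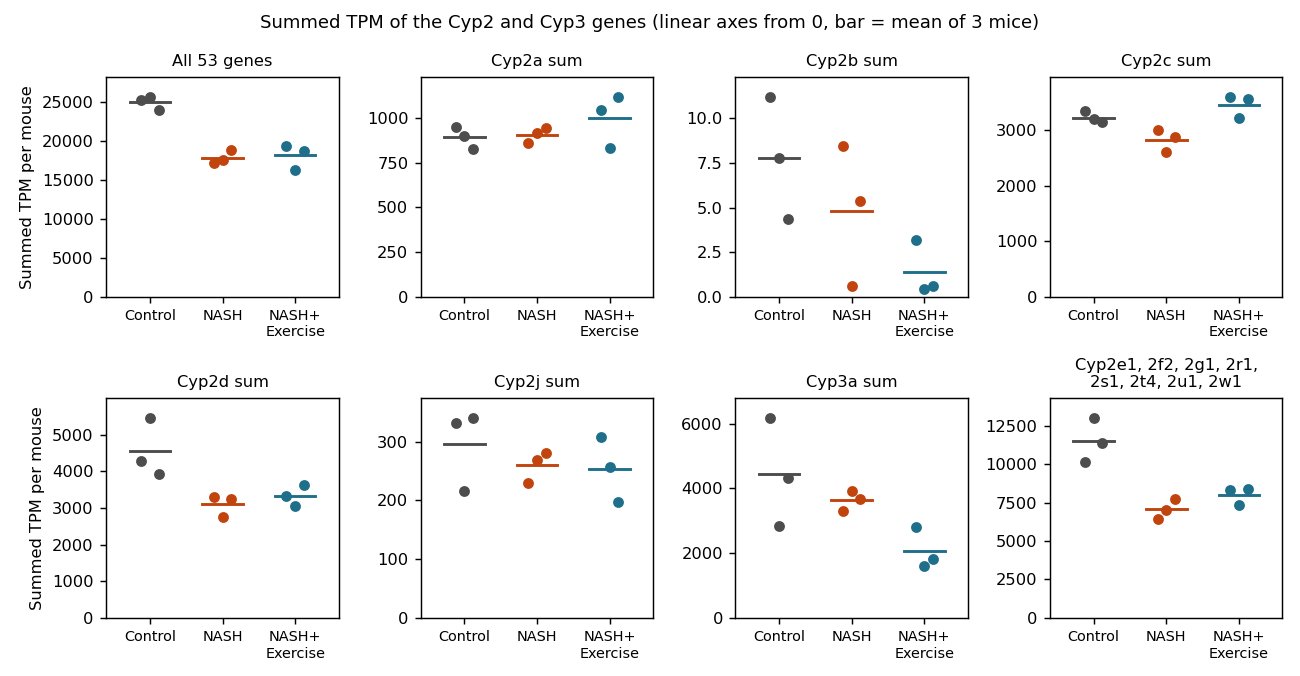
Summed TPM of all 53 Cyp2 and Cyp3 genes and of each subfamily (y axes, linear from 0) in the 3 mice of each group (x axes). Points are mice and bars are group means. The sum over all genes lies between 23990 and 25624 in Control and between 16287 and 19396 in the mice on the Ath diet, and the Cyp3a sum is lowest in NASH+Exercise.

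The subfamilies did not keep step with each other. The Cyp2d sum was 4275, 5454 and 3927 TPM in Control, 3298, 2764 and 3258 TPM in NASH and 3318, 3053 and 3634 TPM in NASH+Exercise, so Control stood apart from both in TPM. In CPM the trained mice overlapped Control and were all above NASH. The sum over Cyp2e1 and the other 7 genes outside the large subfamilies had a mean of 11513 ± 1446 TPM (SD, n = 3) in Control and 7069 ± 636 in NASH, with 8017 ± 597 in NASH+Exercise. For Cyp2c the means were 3231 ± 107, 2832 ± 209 and 3463 ± 215 TPM. The NASH mice were below both other groups, which overlapped each other. NASH+Exercise over Control was 1.07 for Cyp2c in TPM and 0.961 in CPM, so that direction depends on the scale.

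The Cyp3a sum was lower in the trained mice than in the other groups. It was 6169, 2842 and 4335 TPM in Control, 3311, 3928 and 3669 TPM in NASH and 2819, 1597 and 1806 TPM in NASH+Exercise. All 3 trained mice were below all others, and Control and NASH overlapped in TPM but not in CPM. The mean in NASH+Exercise was 0.57 of that in NASH in TPM and 0.701 in CPM. The Cyp2a means were 891 ± 62.6, 906 ± 44.7 and 999 ± 147 TPM with all groups overlapping, and its NASH over Control ratio turned from 1.02 in TPM to 0.745 in CPM. The Cyp2j means were 296 ± 69.2, 260 ± 26.1 and 254 ± 55.4 TPM, and all 3 groups overlapped in TPM, whereas in CPM NASH was below Control without overlap. For this subfamily NASH+Exercise over NASH was 0.977 in TPM and 1.18 in CPM. Cyp2b was scarce throughout, at 7.78 ± 3.43, 4.8 ± 3.95 and 1.4 ± 1.56 TPM. These sums are given without a test.

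The first comparison, NASH against Control, asks what the Ath diet did to these genes. Of the 43 tested, 10 fell (23.3%), against 3.03% of all 13619 genes tested, and 2 rose (4.65%), against 15.3% of all. The genes that fell were Cyp2b10, Cyp2c69, Cyp2c40, Cyp2c37, Cyp2c54, Cyp2d9, Cyp2c68, Cyp2c39, Cyp2e1 and Cyp2d10, and those that rose were Cyp2a4 and Cyp2c70. By adjusted p alone 20 were lower and 2 higher, together 51.2% of the 43 beside 35.6% of all genes. In CPM, 21 genes were lower and 3 higher in all NASH mice than in all Control mice, together 55.8% of the 43, beside 49.6% of all genes. The median log2 fold change was −0.62, beside 0.01 over all genes, and 34 of the 43 were below 0. Among the 32 genes over the cutoff in every mouse, 6 fell, 1 rose and the median was −0.57. Scaling by library size alone moved the median of all genes to 0.36 and left 6 genes fallen and 3 risen, with 26 of 43 below 0.

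**Figure D2:**
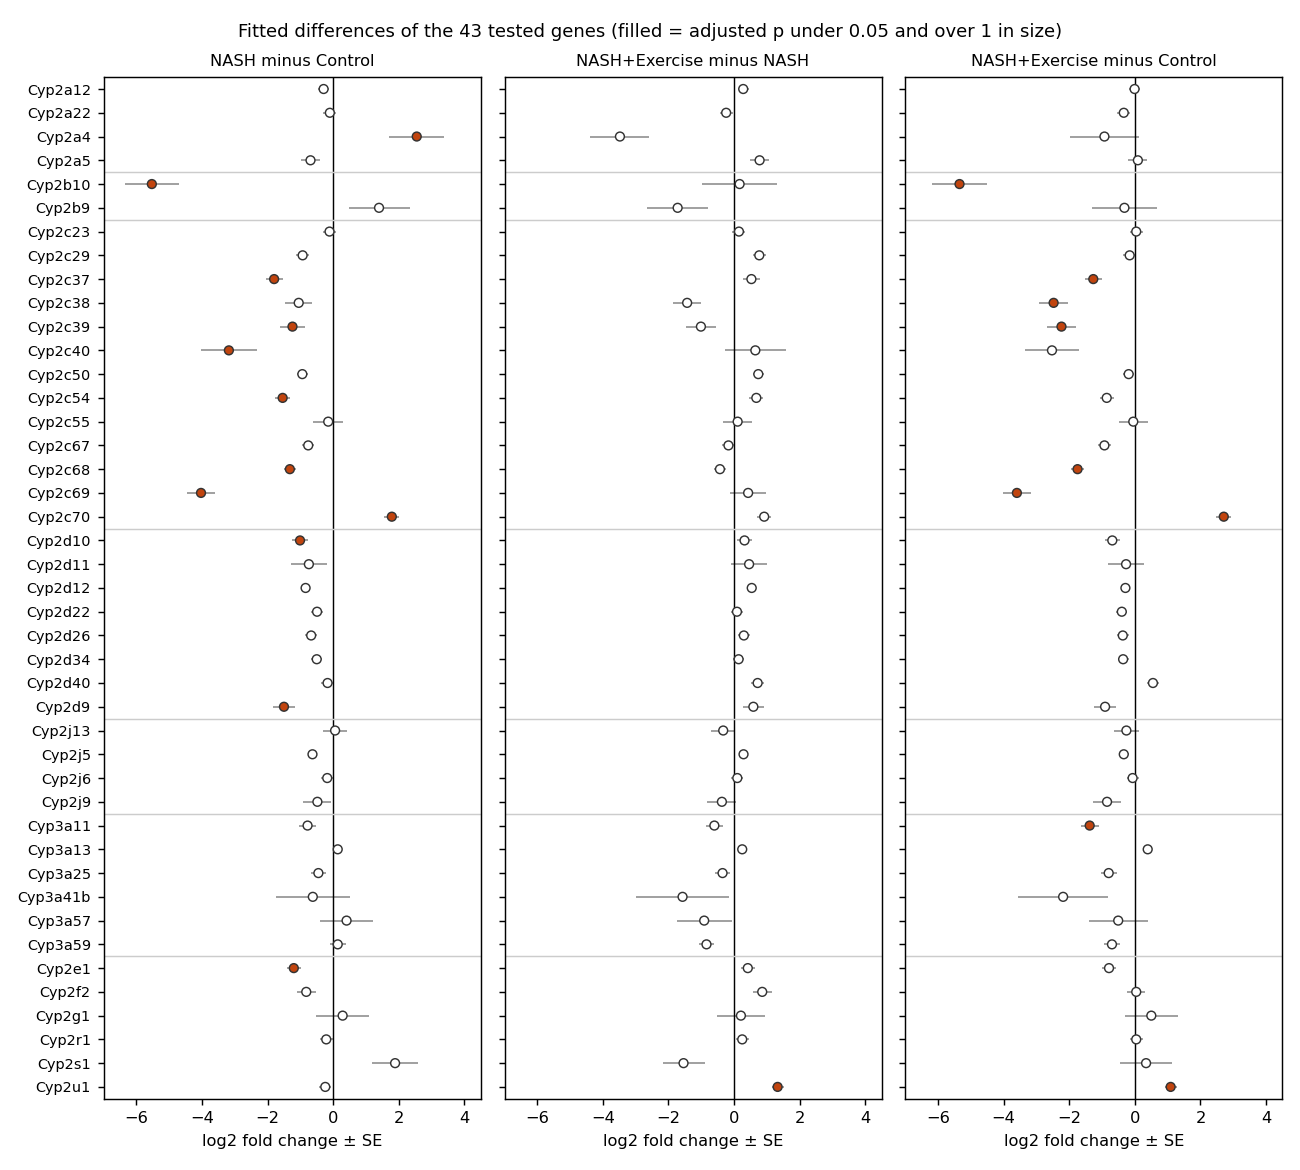
Fitted log2 fold changes (x axes, with standard errors) of the 43 tested genes (y axis, grouped by subfamily) in the 3 comparisons. Filled points passed the adjusted p and size thresholds. There are 12 of them in NASH minus Control, 1 in NASH+Exercise minus NASH (Cyp2u1) and 9 in NASH+Exercise minus Control. The last 2 comparisons share mice with the first.

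Cyp2e1, Cyp2d9 and Cyp2d10, among the most abundant genes of these families, fell in NASH. Cyp2e1 was measured at 10346, 15809 and 10609 CPM in Control, 4680, 5123 and 6167 CPM in NASH and 6522, 6707 and 8081 CPM in NASH+Exercise. Every NASH mouse was below every other mouse. The log2 fold change in NASH was −1.20 (SE 0.21, adjusted p = 0.00155). Its adjusted p stayed at or below 0.0103 in all 15 alternative analyses, but the change was under 1 in size without Control replicate 4 and by library size alone (−0.83). Cyp2d9 was at 1848, 3039 and 1312 CPM in Control, 837, 504 and 853 CPM in NASH and 894, 938 and 1459 CPM in NASH+Exercise. Its NASH mice were apart from the other groups, while a trained mouse reached into the Control range. The log2 fold change was −1.50 (SE 0.34, adjusted p = 0.00642). Cyp2d10 fell by 1.01 on the log2 scale (SE 0.23, adjusted p = 0.00577), close to the threshold of size, and was no longer called without Control replicate 4 or NASH replicate 19 or by library size alone. Cyp2d10 shared 40.5% of the 50-base windows of its transcript with other genes and Cyp2d9 29%, so the division of reads among the Cyp2d genes is uncertain.

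Further genes of the Cyp2d, Cyp2f and Cyp2j groups were lower in NASH by less than the size threshold. Cyp2d26, the second most abundant Cyp2d gene of Control, had means of 1510 ± 326, 947 ± 112 and 1167 ± 116 CPM in Control, NASH and NASH+Exercise (log2 fold change in NASH −0.67, adjusted p = 0.0153). Cyp2d22 had means of 296 ± 65.2, 211 ± 8.22 and 225 ± 28 CPM (−0.49, adjusted p = 0.0416). After TMM scaling all 8 tested Cyp2d genes had a log2 fold change below 0 in NASH, between −1.50 and −0.17. By edgeR's test 6 had an adjusted p under 0.05, beside 35.6% of all genes. In TPM the mean of Cyp2d40 was higher in NASH (155) than in Control (128), that of Cyp2d22 was close (151 and 155) and the other Cyp2d genes were lower in NASH. Cyp2f2, which oxidises naphthalene and is best known from airway club cells, was at 1442, 1942 and 1195 CPM in Control, 1106, 547 and 950 CPM in NASH and 1418, 1288 and 2016 CPM in NASH+Exercise. The NASH mice were below both other groups, with a log2 fold change of −0.82 (SE 0.29, adjusted p = 0.0472). Cyp2j5, an arachidonic acid epoxygenase of liver and kidney, was at 462, 356 and 423 CPM in Control, 241, 253 and 305 CPM in NASH and 356, 336 and 287 CPM in NASH+Exercise. Its log2 fold change in NASH was −0.63 (SE 0.15, adjusted p = 0.0088), and the groups Control and NASH did not overlap. It made up 86.8% of the Cyp2j sum in Control, so the subfamily followed this gene.

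The Cyp2c subfamily held the most changes, in both directions. Of its 13 tested genes, 6 fell and 1 rose in NASH. After TMM scaling 12 had a log2 fold change below 0, and the median was −1.05. Among the abundant epoxygenases, which turn arachidonic and linoleic acid into signalling lipids, Cyp2c37 was at 809, 872 and 574 CPM in Control, 235, 133 and 281 CPM in NASH and 344, 282 and 311 CPM in NASH+Exercise. The 3 groups were apart, Control highest and NASH lowest, though a trained and a NASH mouse nearly met at 282 and 281 CPM. The log2 fold change in NASH was −1.80 (SE 0.26, adjusted p = 0.00049). Cyp2c54 fell as well, from a mean of 315 ± 98.2 to 108 ± 19.3 CPM (−1.54, adjusted p = 0.000347), with 173 ± 13.4 CPM in NASH+Exercise. Cyp2c29, a CAR-inducible gene, stood at 883, 896 and 647 CPM in Control, 472, 331 and 472 CPM in NASH and 608, 744 and 823 CPM in NASH+Exercise. Its NASH mice were the lowest 3 of the 9, and its log2 fold change was −0.93 (SE 0.20, adjusted p = 0.00454), short of the size threshold. Cyp2c50 was alike in size, with means of 781 ± 145, 408 ± 44.6 and 684 ± 73.6 CPM (−0.94, adjusted p = 0.00169). Over the 12 genes listed as epoxygenases or hydroxylases of these fatty acids, all of them tested, 4 fell and 0 rose. After TMM scaling 12 were below 0 with a median of −0.93, or −0.58 by library size alone. In TPM the means in Control and NASH were 397 and 499 for Cyp2c23, 24.8 and 29.6 for Cyp2j6 and 1.35 and 1.64 for Cyp2c55. The direction of these differences thus depends on the scale, while the other listed genes were lower in NASH in TPM as well. Of all genes tested, 3.03% fell and 15.3% rose. Among the 4 that fell, Cyp2c39 and Cyp2c40 had all 3 mice over the filter cutoff only in Control, where they are highest. By edgeR's test 7 of the 12 had an adjusted p under 0.05, as did 35.6% of all genes. Cyp2c37, Cyp2c50 and Cyp2c54 share between 25.7% and 30.7% of their 50-base windows with each other or other genes, whereas Cyp2c29 shares 2.08%.

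Cyp2c70 went the other way. This enzyme makes the muricholic acids, the bile acids that set mice apart from humans, and it was at 183, 201 and 131 CPM in Control, 680, 582 and 512 CPM in NASH and 879, 1051 and 1431 CPM in NASH+Exercise. The 3 groups did not overlap. In NASH it rose by a log2 fold change of 1.79 (SE 0.23, adjusted p = 0.000179), a 3.45-fold difference, and the call held in all 15 alternatives. No 50-base window of its transcript is shared with another gene. Its share of the Cyp2c sum in TPM was 4.89%, 4.8% and 4.16% in Control and 26.1%, 28.6% and 20.1% in NASH, with 26.5%, 31.1% and 34.6% in NASH+Exercise. In TPM the gene went from 149 ± 16.9 in Control, below 7 other Cyp2c genes, to the highest of the subfamily in NASH at 703 ± 110 and in NASH+Exercise at 1063 ± 152. Cyp2c37 moved from 18.6% of the Cyp2c sum in Control to 8.24% in NASH and 8.09% in NASH+Exercise. Cyp2c23, an epoxygenase also known as Cyp2c44 that shares no 50-base window with another gene, had means of 533 ± 100, 495 ± 112 and 549 ± 65.3 CPM and a log2 fold change of −0.11 in NASH (adjusted p = 0.714).

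**Figure D3:**
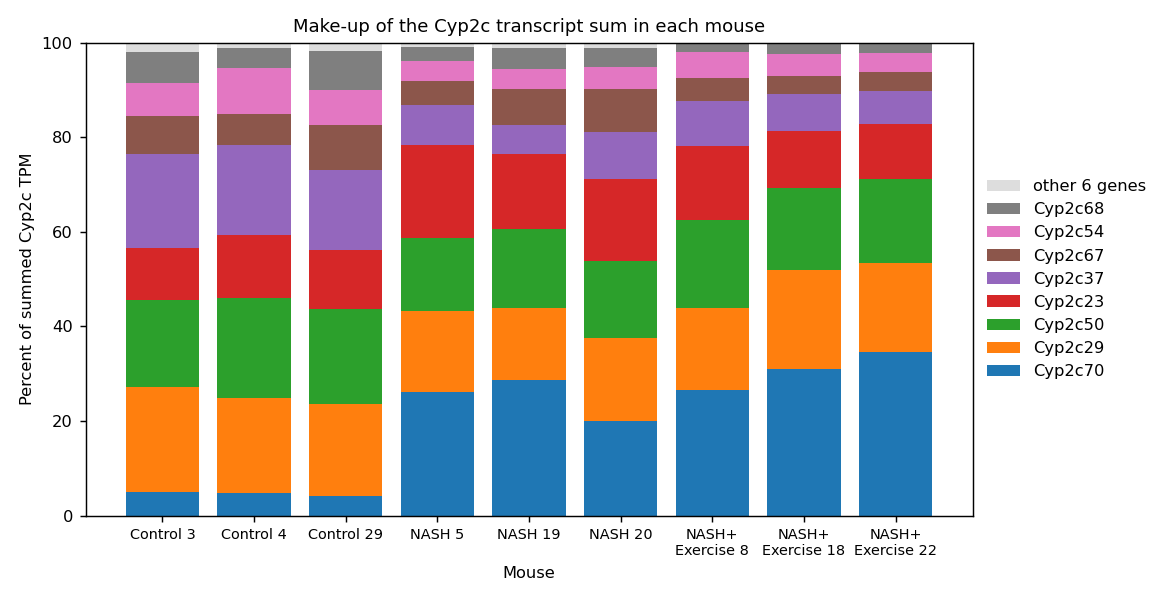
Make-up of the summed Cyp2c TPM (y axis, percent) in each of the 9 mice (x axis), stacked by gene. The share of Cyp2c70 lies between 4.16% and 4.89% in the Control mice and between 20.1% and 34.6% in the mice on the Ath diet, and Cyp2c37 takes a smaller share there in every mouse.

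Cyp2c68 and the scarce Cyp2c69, Cyp2c40 and Cyp2c39 also fell. Cyp2c68 had means of 241 ± 47.1, 96.7 ± 14.3 and 71.8 ± 11.5 CPM and a log2 fold change of −1.32 in NASH (SE 0.18, adjusted p = 0.000347). Cyp2c69, a female-biased gene, was at 4.45, 3 and 3.52 CPM in Control, 0.208, 0.233 and 0.213 CPM in NASH and 0.0873, 0.519 and 0.292 CPM in NASH+Exercise. Both groups on the diet lay far below Control, with a log2 fold change of −4.03 in NASH (SE 0.44, adjusted p = 7.66e-05). Cyp2c40, which hydroxylates arachidonic acid, was at 5.26, 2.67 and 8.06 CPM in Control, 0.0831, 0.892 and 0.765 CPM in NASH and 0.175, 0.425 and 2.19 CPM in NASH+Exercise. Its log2 fold change in NASH was −3.18 (SE 0.86, adjusted p = 0.018), and without Control replicate 29 it was no longer called (adjusted p = 0.051, the highest of a range from 1.2e-07 over the alternatives). Cyp2c39, which hydroxylates retinoic acid, was at 1.23, 1 and 1.99 CPM in Control, 0.54, 0.854 and 0.383 CPM in NASH and 0.306, 0.33 and 0.244 CPM in NASH+Exercise. The log2 fold change in NASH was −1.24 (SE 0.38, adjusted p = 0.0278), and the call was lost without Control replicate 29, NASH replicate 5 or NASH replicate 20, by library size alone and with DESeq2 on the 6 mice. Reads are hardest to assign here, since Cyp2c40 shares 72.1%, Cyp2c69 54.8%, Cyp2c67 52.8% and Cyp2c68 43.3% of the 50-base windows of their transcripts, mostly with each other. Cyp2c55, known as an inducible gene of liver and gut, was at 2.2, 1.78 and 1.43 CPM in Control, 2.33, 1.05 and 1.49 CPM in NASH and 0.698, 1.98 and 2.58 CPM in NASH+Exercise, and the groups overlapped (log2 fold change in NASH −0.15, adjusted p = 0.826, above 0 by library size alone).

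Within Cyp2b, Cyp2b10 fell to near the limit of detection, and Cyp2b9 varied widely between mice. Cyp2b10, the classical target of CAR and of phenobarbital, was at 12.7, 10.3 and 2.35 CPM in Control, 0.416, 0.0776 and 0.0425 CPM in NASH and 0.262, 0.0472 and 0.292 CPM in NASH+Exercise. These levels stood for 236.72, 185.94 and 45.97 estimated counts in Control and 9.80, 2.17 and 1.37 in NASH, with 6.08, 1 and 6 in NASH+Exercise. The groups on the diet overlapped each other and lay below all Control mice, and the log2 fold change in NASH was −5.53 (SE 0.83, adjusted p = 0.000747). It was called in all 15 alternatives, with a log2 fold change between −6.99 and −5.09, and its size is imprecise because of the low counts. Cyp2b9, a female-biased gene, was at 1.34, 1 and 2.5 CPM in Control, 7.56, 0.427 and 4.93 CPM in NASH and 2.92, 0.472 and 0.439 CPM in NASH+Exercise. The groups overlapped widely, with a log2 fold change of 1.40 in NASH (SE 0.93, adjusted p = 0.277). In TPM, Cyp2b10 was 82.6% of the Cyp2b sum in Control and 4.03% in NASH, while Cyp2b9 was 16.9% and 92.2%.

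Cyp2a4, a testosterone 15α-hydroxylase with higher levels in females, was the second gene to rise in NASH, from a low base. It was at 0.429, 0.445 and 0.663 CPM in Control, 2.78, 5.47 and 0.808 CPM in NASH and 0, 0.142 and 0.682 CPM in NASH+Exercise. NASH replicates 5 and 19 were far above the rest, while NASH replicate 20 was close to the highest Control mouse. Only in NASH were all 3 mice over the filter cutoff. The log2 fold change was 2.55 (SE 0.84, adjusted p = 0.039). This call was lost in 7 of 15 alternatives, without Control replicate 3, 4 or 29, NASH replicate 5 or 19 or NASH+Exercise replicate 18 and without the filter, where the adjusted p ranged up to 0.155. It shares 38% of its 50-base windows, mostly with Cyp2a5, which is far more abundant. Cyp2a5, the coumarin 7-hydroxylase, was at 500, 459 and 241 CPM in Control, 200, 279 and 262 CPM in NASH and 396, 309 and 569 CPM in NASH+Exercise (log2 fold change in NASH −0.69, SE 0.30, adjusted p = 0.0938). Its NASH mice overlapped Control and were below all trained mice. Cyp2a12, which acts on steroids and bile acids, was at 557, 718 and 569 CPM in Control, 527, 421 and 565 CPM in NASH and 560, 562 and 711 CPM in NASH+Exercise. Its groups overlapped, and its log2 fold change of −0.29 in NASH (adjusted p = 0.224) turned to 0.07 by library size alone. Of the 8 genes listed as female-biased, 4 were tested, and 1 fell (Cyp2c69), 1 rose (Cyp2a4) and 2 did not pass the test (Cyp2b9 and Cyp3a41b). Among all genes tested, 3.03% fell and 15.3% rose in NASH. Both called genes passed the filter through the group where they were high, Cyp2c69 with 3 Control and 0 NASH mice over the cutoff.

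No Cyp3a gene was called in NASH against Control. Cyp3a11, the counterpart of human CYP3A4 and a classical PXR target, was at 7546, 3907 and 4441 CPM in Control, 2965, 3108 and 3167 CPM in NASH and 2510, 1507 and 2076 CPM in NASH+Exercise. The 3 groups did not overlap, and the log2 fold change in NASH was −0.78 (SE 0.26, adjusted p = 0.0398). Cyp3a13, which is also expressed in the gut, was at 194, 191 and 159 CPM in Control, 199, 186 and 213 CPM in NASH and 229, 259 and 224 CPM in NASH+Exercise. For Cyp3a13 the log2 fold change in NASH was 0.14 (SE 0.13, adjusted p = 0.435), and the groups overlapped in CPM. In TPM it was at 97.5, 81.9 and 90 in Control and 131, 135 and 136 in NASH, higher without overlap, so the size of the difference depends on the scale. Cyp3a25 and Cyp3a59, which share 26.8% and 28% of their 50-base windows, mainly with each other, had log2 fold changes of −0.45 (adjusted p = 0.176) and 0.14 (adjusted p = 0.68). Cyp2r1, which hydroxylates vitamin D at carbon 25 and shares no window with another gene, was at 10.6, 7.51 and 7.86 CPM in Control, 8.27, 5.7 and 8.5 CPM in NASH and 8.42, 9.63 and 8.63 CPM in NASH+Exercise. Its log2 fold change of −0.21 in NASH (adjusted p = 0.439) turned to 0.12 by library size alone.

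**Figure D4:**
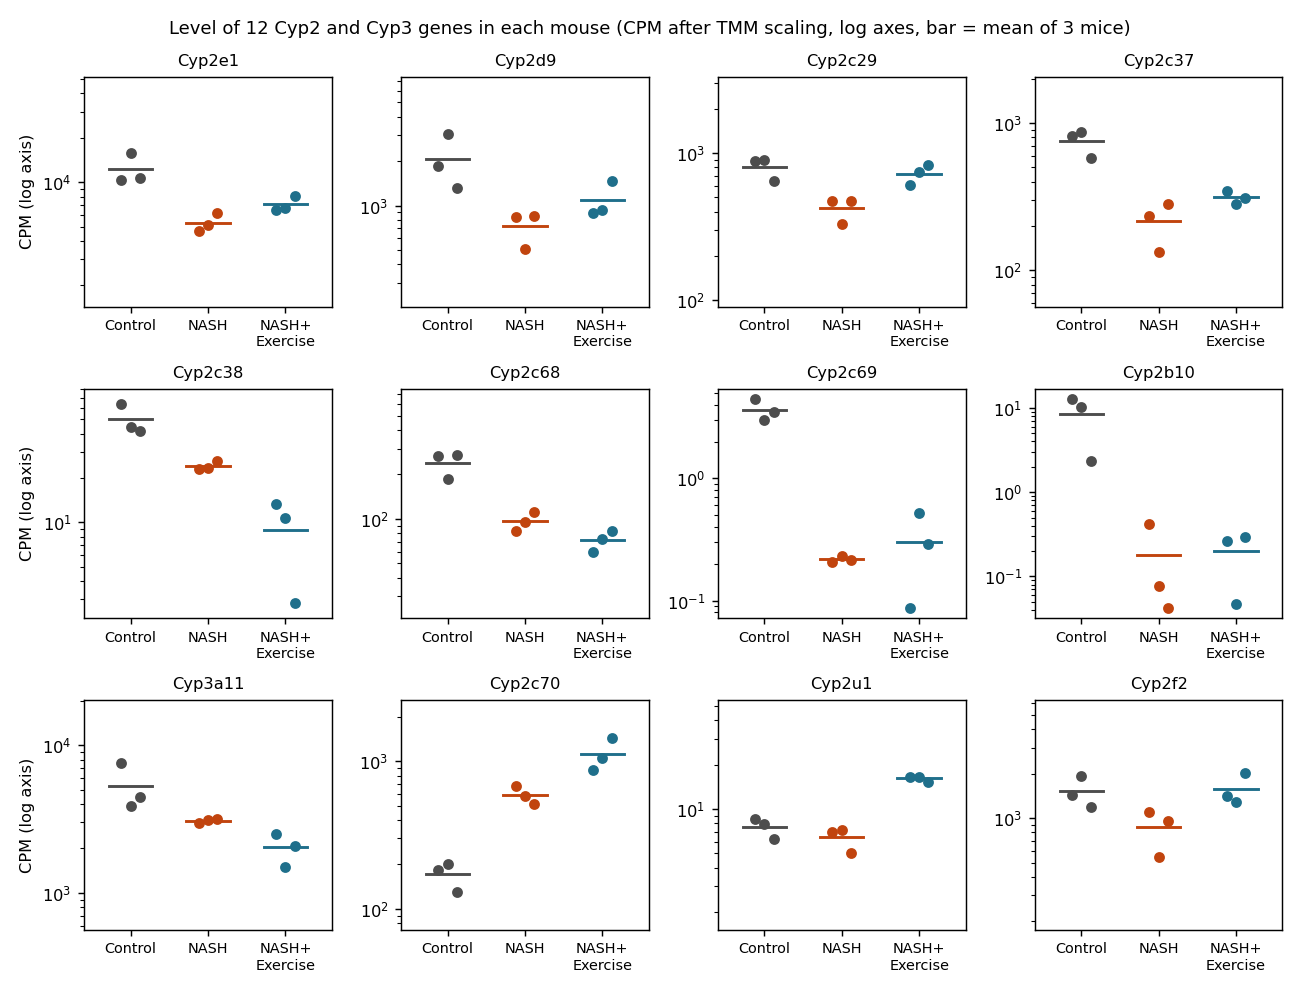
Level of 12 genes in each mouse, in CPM after TMM scaling (y axes, logarithmic) by group (x axes), with points for mice and bars for arithmetic means. Cyp2c70 steps up from 131 to 201 CPM in Control to 879 to 1431 CPM in NASH+Exercise, Cyp3a11 and Cyp2c38 step down in the same order, Cyp2b10 and Cyp2c69 are low in both groups on the Ath diet, and Cyp2u1 is high in NASH+Exercise.

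The second comparison, NASH+Exercise against NASH, asks what training did in mice on the diet. It gave 1 call among the 43 tested genes, Cyp2u1, which rose (2.33%, against 0.103% of all genes). None fell by edgeR's test, against 0.0367% of all genes. At an unadjusted p under 0.05 there were 16 genes, 9 higher and 7 lower, or 37.2% of the 43 against 15.3% of all genes. Cyp2s1, Cyp2a4 and Cyp2c39 among the lower ones passed the filter only through some mice, and of the 32 genes over the cutoff in every mouse 1 rose, 0 fell, 9 were below 0 and the median was 0.26. DESeq2 on all 9 mice called Cyp2a4 and Cyp2c38 lower, and DESeq2 on the 6 mice of the comparison called none lower. In 21 genes (48.8%) the groups did not overlap in CPM, 14 of them higher and 7 lower in NASH+Exercise, beside 24.1% of all genes. The median log2 fold change was 0.21 against −0.03 over all genes, with 28 genes above 0. By library size alone, which moved the median of all genes to −0.23, the median of the 43 was −0.02 and 21 were above 0.

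Cyp2u1, which hydroxylates long-chain fatty acids, was at 8.59, 7.95 and 6.23 CPM in Control, 6.98, 7.22 and 5.02 CPM in NASH and 16.5, 16.5 and 15.3 CPM in NASH+Exercise. The trained mice were far above the other 6, which overlapped. The log2 fold change against NASH was 1.33 (SE 0.18, adjusted p = 0.0405), a 2.51-fold difference, and it lay between 1.12 and 1.44 in all 15 alternatives. The call was lost in 7 of them, by library size alone and without Control replicate 3, NASH replicate 5, 19 or 20 or NASH+Exercise replicate 18 or 22, where the adjusted p reached 0.134. In TPM it remained a minor gene, at 5.71 ± 0.873 in Control and 6.07 ± 1.29 in NASH, with 12.3 ± 1.63 in NASH+Exercise. Its transcript shares 3.14% of its 50-base windows with other genes.

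The patterns of the other genes can be read only from their values, since no adjusted p passed. Higher in every trained than in every NASH mouse were Cyp2c29, with a log2 fold change of 0.77 (adjusted p = 0.137), Cyp2c50 with 0.74 (adjusted p = 0.122), Cyp2c70 with 0.92 (adjusted p = 0.128) and Cyp2f2 with 0.86 (adjusted p = 0.216). Cyp2e1 differed by 0.42 (adjusted p = 0.379) and Cyp2d9 by 0.59 (adjusted p = 0.428), again without overlap. After TMM scaling all 8 Cyp2d genes had a log2 fold change above 0, between 0.09 and 0.72. In TPM the means in NASH and NASH+Exercise were 151 and 131 for Cyp2d22 and 8.32 and 7.56 for Cyp2d34. Cyp2d26 was at 1149 in both groups, and the other Cyp2d genes were higher in NASH+Exercise. Lower in every trained mouse were Cyp3a11, by −0.60 (adjusted p = 0.311), Cyp3a59, by −0.84 (adjusted p = 0.168), and Cyp2c38, by −1.43 (adjusted p = 0.188). Of the 6 tested Cyp3a genes, 5 were below 0 and Cyp3a13 was above it at 0.25 (adjusted p = 0.382). Cyp2a4 had the most negative value, −3.48 (SE 0.90, adjusted p = 0.15), resting on the same NASH replicates 5 and 19. Cyp2b10 differed by 0.17 (SE 1.15, adjusted p = 0.96), a value that turned to −0.02 by library size alone.

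The third comparison, NASH+Exercise against Control, shares mice with both others and shows where the trained mice stood relative to normal chow. Here 7 of the 43 fell (16.3%, against 3.07% of all genes) and 2 rose (4.65%, against 10.4%). The groups did not overlap in 21 genes (48.8%), 18 lower and 3 higher, beside 38.6% of all genes, and the median log2 fold change was −0.36 against 0.00. Among the 32 genes over the cutoff in every mouse, 4 fell and 2 rose. The genes that fell were Cyp2b10, at −5.35 (SE 0.83, adjusted p = 0.0013), Cyp2c69, at −3.60 (adjusted p = 0.000213), Cyp2c38, Cyp2c39, at −2.24 (adjusted p = 0.00322), Cyp2c68, at −1.75 (adjusted p = 0.000114), Cyp3a11 and Cyp2c37, at −1.27 (adjusted p = 0.00509). Cyp2c38, an epoxygenase, was at 63.9, 44.1 and 41.9 CPM in Control, 23.1, 23.4 and 25.9 CPM in NASH and 13.3, 10.7 and 2.83 CPM in NASH+Exercise. Its groups were apart in steps, with a log2 fold change against Control of −2.48 (SE 0.44, adjusted p = 0.00296), while in NASH the value of −1.05 had an adjusted p of 0.0747. For Cyp3a11 the log2 fold change was −1.38 (SE 0.27, adjusted p = 0.0035), called in all 15 alternatives. Cyp2c40 was at −2.53 (adjusted p = 0.0515) and was not called. Cyp2c70 rose by 2.71 (SE 0.23, adjusted p = 3.1e-05) and Cyp2u1 by 1.09 (SE 0.18, adjusted p = 0.00126), the latter not called without Control replicate 29. By adjusted p alone 12 were lower and 3 higher, together 34.9% of the 43 beside 25.1% of all genes, and Cyp3a13 was the third that was higher, at 0.39 (adjusted p = 0.0477). Cyp2e1 remained lower at −0.79 (SE 0.21, adjusted p = 0.0203), short of the size threshold. Cyp2c29 (−0.16, adjusted p = 0.618), Cyp2c50 (−0.19, adjusted p = 0.451) and Cyp2f2 (0.04, adjusted p = 0.933) had values near 0.

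Of the receptors that drive these genes, CAR fell against Control in both groups on the diet and PXR in the trained mice. Nr1i3, which encodes CAR, was at 187, 198 and 165 CPM in Control, 66.6, 81.2 and 126 CPM in NASH and 99.2, 73 and 79.5 CPM in NASH+Exercise. Both groups on the diet were below Control, with log2 fold changes of −1.01 in NASH (SE 0.22, adjusted p = 0.00506) and −1.13 in NASH+Exercise (adjusted p = 0.00383). Nr1i2, which encodes PXR, was at 124, 124 and 131 CPM in Control, 83, 79.6 and 105 CPM in NASH and 58, 52.7 and 77.3 CPM in NASH+Exercise. The 3 groups were apart in steps, and PXR fell against Control in NASH+Exercise (−1.01, adjusted p = 0.0012), with −0.50 in NASH (adjusted p = 0.0318) and −0.51 between the groups on the diet (adjusted p = 0.198). Both values of −1.01 were close to the threshold of size. Ppara (−0.90, adjusted p = 0.00206) and Nr1h4 (−0.85, adjusted p = 0.0101) were lower in NASH, short of that threshold. In NASH 2 of the 8 listed were above 0. Of the 8 receptors and partners listed, 1 fell in NASH, 0 were called with training and 2 fell against Control in the trained mice. The list's median in NASH was −0.38, or −0.03 by library size alone. Among all genes tested, 3.03% fell and 15.3% rose in NASH. With training 0.0367% fell and 0.103% rose, and in the trained mice against Control 3.07% fell and 10.4% rose. None of the 13 listed liver transcription factors was called in NASH, where the median was −0.19 (0.17 by library size alone) and 4 had an adjusted p under 0.05, beside 35.6% of all genes. Dbp, a factor of the circadian output, rose in NASH+Exercise against Control (3.83, adjusted p = 0.0479), with 1.18, 1.72 and 6.99 CPM in Control and 82.5, 2.03 and 58 CPM in the trained mice, of which replicate 18 lay within the Control range. Of the 10 genes listed for growth hormone signalling and sex-biased control, Socs3, a feedback inhibitor of cytokine receptors, rose in NASH (1.27, adjusted p = 0.0395) and in NASH+Exercise against Control (2.19, adjusted p = 0.00486). Cux2, a female-biased repressor, fell in NASH+Exercise against Control (−2.05, adjusted p = 0.021), from a low level. It was at 2.04, 0.556 and 1.28 CPM in Control and 0.349, 0.425 and 0.146 CPM in NASH+Exercise. Every trained mouse was under the cutoff of 0.465 CPM, so the gene passed the filter through the other groups.

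Transcripts of genes that supply electrons and haem were measured as well, not the supply itself. None of 6 electron transfer partners was called in any comparison. Among all genes tested, 3.03% fell and 15.3% rose in NASH, and 0.0367% fell and 0.103% rose with training. In NASH+Exercise against Control 3.07% fell and 10.4% rose. The reductase Por was at 546, 684 and 535 CPM in Control, 287, 247 and 443 CPM in NASH and 317, 280 and 674 CPM in NASH+Exercise. Its groups NASH and Control did not overlap, but the log2 fold change of −0.85 had an adjusted p of 0.0736. All 6 partners were below 0 in NASH with a median of −0.54 (−0.19 by library size alone), and 3 had an adjusted p under 0.05, beside 35.6% of all genes. Alas1, the first enzyme of haem synthesis, was at 457, 332 and 590 CPM in Control, 261, 137 and 275 CPM in NASH and 286, 174 and 617 CPM in NASH+Exercise (−1.03 in NASH, adjusted p = 0.103). Of 12 genes of haem synthesis and breakdown, Cpox, a late enzyme of synthesis, fell in NASH (−1.48, adjusted p = 3.77e-05). Hmox1, which degrades haem, rose (1.46, adjusted p = 0.000193). In NASH+Exercise against Control they stood at −1.39 (adjusted p = 0.0001) and 1.41 (adjusted p = 0.000376), and neither was called between the groups on the diet.

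**Figure D5:**
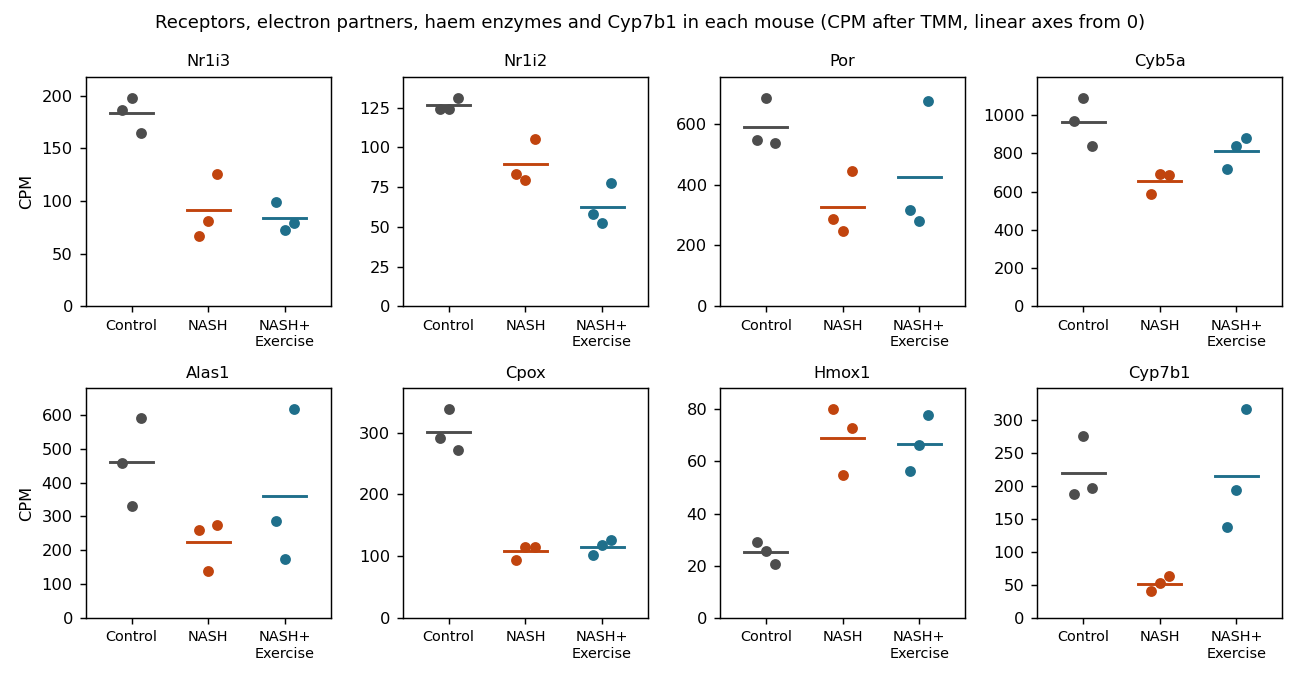
CPM after TMM scaling (y axes, linear from 0) of the receptors Nr1i3 and Nr1i2, the electron partners Por and Cyb5a, the haem genes Alas1, Cpox and Hmox1 and the bile acid enzyme Cyp7b1 in each mouse by group (x axes). Points are mice and bars are means. Nr1i3, Nr1i2 and Cpox lie below Control in all 6 mice on the Ath diet and Hmox1 lies above, and Cyp7b1 lies between 40.1 and 62.6 CPM in NASH, below all other mice.

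Markers of liver cell types moved with the same groups. The 10 macrophage markers all rose in NASH, and their sum lay between 83.2 and 170 TPM in Control and 1194 and 1496 in NASH, with 800 and 1006 in NASH+Exercise. Of the other lists, 4 of 6 neutrophil, 6 of 6 T and NK cell, 3 of 8 stellate, 1 of 6 sinusoidal endothelial and 4 of 6 cholangiocyte markers rose, and 0 of 4 tested B cell markers. Of all genes tested, 15.3% rose in NASH and 3.03% fell. Among the risen markers, S100a8, Retnlg, Cd3e and Cldn4 were under the cutoff of 0.465 CPM in every Control mouse. They passed the filter through mice on the diet, where they were higher. Hepatocyte markers outside the P450 genes had 2 of 16 fallen (Hpd and Tdo2) and a median log2 fold change of −0.59 in NASH, beside −0.62 for the 43 genes. Their TPM sum overlapped between groups, from 145262 to 150235 in Control and 136242 to 166998 in NASH, with 128933 to 148789 in NASH+Exercise, and Alb was high in every library. Of 10 pericentral markers 5 fell, all 10 were below 0 and the median was −1.05, with sums of 2438 to 2623 TPM in Control and 1403 to 2011 in NASH, with 1844 to 2168 in NASH+Exercise. Of 10 periportal markers 4 fell, all 10 were below 0 as well and the median was −0.94. Their sums were 12501 to 14348, 8869 to 9735 and 6560 to 8608 TPM. By library size alone the medians were −0.68 for the pericentral and −0.60 for the periportal markers. The part of cell make-up and of zonation in the differences above was not tested.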

How the data were processed

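RNA from the livers of 9 mice (3 Control, 3 NASH, 3 NASH+Exercise) was sequenced as mRNA libraries, 1 per mouse. The authors deposited expected counts per gene (estimated, not normalized, 29.0 to 32.8% of them not whole) and TPM, scaled by the authors to transcript length and library. The submitters' processing notes name HISAT2 2.1.0, Bowtie2 2.2.5, RSEM 1.2.8 and GRCm38.p6, with no role or order given. Read length, strandedness and filters are not given in the sources used here. An estimation step divides reads between near-identical genes, so values of duplicated genes are less certain. Deposited FPKM values and the authors' comparison columns, which hold fold changes and p-values, were not used. In the file that repeats other mice's values, 285536 values were compared and 0 differed.

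Symbols came from a RefSeq table of GRCm38.p6 for 17728 of 17846 identifiers and from GENCODE for 13, and 105 had none. Counts were rounded and tested with edgeR 4.0.16 in R 4.3.3 (filterByExpr by group, minimum count 10 and total 15, TMM, robust quasi-likelihood fit of all 9 mice on group, 6 residual degrees of freedom), with Benjamini-Hochberg adjustment over 13619 genes and calls at an adjusted p under 0.05 and a log2 fold change above 1 in size. TMM factors and CPM came from the same fit. Libraries held 20086004 to 22495449 counts. The mice are separate animals. Alternatives were library size alone, DESeq2 size factors, no filter, DESeq2 1.42.0, a fit of 6 mice and leaving out each mouse. The procedure was tested on simulated data.

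Genes given mouse by mouse were the most abundant of each subfamily, the 4 called genes with the largest change per comparison and direction, genes called with training and 15 with a well-known role. Members and gene lists were chosen with earlier results of these data known. Sharing between genes is the percent of 50-base windows of the longest GENCODE M21 transcript found in another gene; it stands in for the protein comparison planned, for which no sequences were at hand. Motifs were searched on both strands of RefSeq promoters.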

Additional observations from a re-analysis of the deposited data

How the results depend on the processing

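Counts of called genes among the 43 tested depended on the analysis as follows. In NASH against Control, 2 rose and 10 fell. Leaving out 1 mouse gave 1 to 2 risen and 8 to 11 fallen, omitting the filter gave 1 risen, library size alone gave 6 fallen and the adjusted p alone 20. In NASH+Exercise against NASH, 1 rose and 0 fell. Library size alone gave 0 risen, leaving out 1 mouse 0 to 1, and DESeq2 on all 9 mice 2 fallen. In NASH+Exercise against Control, 2 rose and 7 fell, with 1 to 2 risen when a mouse was left out and 12 fallen by adjusted p alone. Values of called genes among those given mouse by mouse kept their direction in all alternatives run. They kept their call in 120 of 135, 8 of 15 and 119 of 120 values of the 3 comparisons. Signs turned only for values that were not called. In NASH against Control, library size alone gave log2 fold changes of 0.07 for Cyp2a12, 0.18 for Cyp2c55, 0.12 for Cyp2r1 and 0.12 for Cyp2u1, and leaving out 1 mouse gave −0.51 to 0.05 for Cyp2c55. In NASH+Exercise against NASH, library size alone gave −0.02 for Cyp2b10 and −0.11 for Cyp2c55. Leaving out 1 mouse gave −0.26 to 1.64 for Cyp2b10, −0.96 to 1.16 for Cyp2c40, −0.28 to 0.50 for Cyp2c55 and −0.22 to 0.89 for Cyp2c69. In NASH+Exercise against Control, Cyp2a12 was at 0.14 by library size alone and at 0.03 in the fit of 6 mice, and Cyp2c55 at 0.07 by library size alone. Leaving out 1 mouse gave −0.13 to 0.14 for Cyp2a12, −0.19 to 0.28 for Cyp2a5, −1.82 to 0.12 for Cyp2b9, −0.43 to 0.34 for Cyp2c55, −0.18 to 0.28 for Cyp2f2 and −0.04 to 0.21 for Cyp2r1. The cause was not tested. No paired analysis was possible because the groups share no replicate number.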

Other observations

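P450 genes outside families 2 and 3 were measured in the same livers, with 29 of 38 tested. In NASH 13 fell and 4 rose, while 3.03% of all genes tested fell and 15.3% rose. The median log2 fold change was −1.01, beside 0.01 over all genes, and it was −0.53 by library size alone. Cyp8b1, the sterol 12α-hydroxylase of cholic acid synthesis, was at 746, 1537 and 651 CPM in Control, 1.54, 5.24 and 5.44 CPM in NASH and 2.84, 8.83 and 7.41 CPM in NASH+Exercise (−7.90 in NASH, adjusted p = 3.52e-05 by edgeR). Cyp4a14, a fatty acid ω-hydroxylase and target of PPARα, was at 6184, 4083 and 8442 CPM in Control, 169, 126 and 803 CPM in NASH and 19.8, 33.7 and 5.8 CPM in NASH+Exercise (−4.09 in NASH, adjusted p = 0.00491, and −4.21 between the groups on the diet, adjusted p = 0.116). The genes that rose in NASH were Cyp1b1, Cyp4f16, Cyp4f18 and Cyp21a1.

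Cyp7b1, the oxysterol 7α-hydroxylase, was at 187, 276 and 196 CPM in Control, 40.1, 52.2 and 62.6 CPM in NASH and 137, 193 and 316 CPM in NASH+Exercise. It fell in NASH (−2.09, adjusted p = 0.000572) and rose with training (2.06, adjusted p = 0.0405), the only other P450 gene of the 29 called in that comparison. Of all genes tested, 0.103% rose with training. Cyp1a2, the caffeine-oxidising enzyme and a pericentral marker, was at 696, 883 and 383 CPM, 276, 307 and 293 CPM and 462, 516 and 913 CPM. It fell in NASH (−1.16, adjusted p = 0.0178), and its difference of 1.11 with training had an adjusted p of 0.173.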
